A study of Mus musculus with 8 samples.

Results

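The genes described here were p53 pathway genes and Cdk inhibitors in the mouse heart. They were 10 genes given as a list of symbols: the transcription factor gene Trp53, its targets Mdm2, Ccng1 and Trp53inp1, the Cdk inhibitor genes Cdkn1a, Cdkn1b, Cdkn1c and Cdkn2c, and the growth arrest genes Gadd45a and Gadd45b. All 10 were found among the 55471 genes of the deposited tables and all 10 were among the 15084 genes with enough counts to be tested. RNA was sequenced from small pieces of heart of 4 wild-type (WT) and 4 TAZG197V samples, to ask how loss of Tafazzin function changes cardiac transcripts. Tafazzin is the mitochondrial enzyme that remodels cardiolipin, and its loss causes Barth syndrome in humans. TAZG197V mice carry a knock-in point mutation that was made by CRISPR/Cas9 in C57BL/6N zygotes, followed by crosses to C57BL6/J. The study describes the animals as hemizygous males sampled at 14 weeks of age, whereas the breeding text of its methods and of the labels speaks of homozygous offspring. No treatment was given to either group. Neither source states that each sample came from a different mouse, so p-values measure the spread between these 8 samples.

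Total counts were 23055689 to 36301031 per sample. Taz, the edited gene, was read at 58.7 to 63.8 CPM (counts relative to library size, scaled by TMM) in WT and 44.3 to 50.4 in TAZG197V, but a count per gene cannot show the point mutation. The 8 cardiomyocyte markers were abundant in every sample, with sums of 61510 to 70660 CPM in WT and 51870 to 55320 in TAZG197V, and 5 of them were called lower, against 15.1% of all tested genes. In such bulk tissue, fewer cells of a type and less RNA per cell cannot be told apart. Both number 4 samples stood apart. The 9 brain markers summed to 213 CPM in WT 4 and 381.5 in TAZG197V 4, against 44.0 to 86.9 in the other samples, and the 6 red cell markers summed to 55070 CPM in WT 4, against 227.3 to 1065 in the others. By the names of the deposited files, lane 7 of the sequencer held numbers 1 and 2 of both genotypes, and lane 8 held numbers 3 and 4. Calls of the 10 genes that changed without the number 4 samples, or in a fit of 1 lane alone with 2 samples a genotype, are given with those values.

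The p53 protein, encoded by Trp53, is a transcription factor that is controlled mainly through protein stability. Mdm2 is the ubiquitin ligase that degrades p53, and because p53 activates the Mdm2 gene, the pair forms a negative feedback loop. Cdkn1a, which encodes p21, is the best known p53 target and blocks cyclin-dependent kinases (Cdks), although other stress pathways also induce it. The Cip/Kip inhibitors p21 (Cdkn1a), p27 (Cdkn1b) and p57 (Cdkn1c) bind several cyclin-Cdk complexes, whereas INK4 inhibitors such as p18 (Cdkn2c) bind Cdk4 and Cdk6. Adult cardiomyocytes have largely left the cell cycle, and p21 and p27 are among the inhibitors associated with that exit.

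The promoter sequences of the called genes with a window are shown because p53 binds a defined DNA element. RefSeq start sites on GRCm38.p6 were found for 8 of the 10 genes, with Trp53inp1 and Cdkn1c not matched, and gave 10 windows of the 250 bases before a start. The p53 element was searched as a pair of adjoining decamers on both strands, with the core of each intact and at most 2 mismatches in all. Of all 32851 promoter windows, 44 (0.134%) held it. Of the windows of the 10 genes it was held by that of the upstream Cdkn1a start alone, with 1 mismatch, between 51 and 32 bases before the start. Sequence outside these windows, introns included, was not searched, so an element there would be missed. The other elements searched on both strands, none of which contains another, were CCAAT (in 33.8% of all windows), TATAAA (12.4%), CACGTG (6.02%) and TGATGNAA (3.45%). Capitals mark the p53 element in the first sequence and any of these 4 elements in the others, each written 5′ to 3′ on the strand of the gene. The windows are chr17:29090729-29090978 (plus strand) for the upstream Cdkn1a start, chr17:29093519-29093768 (plus) for the downstream Cdkn1a start, chr10:117710759-117711008 (minus) for Mdm2, chr6:67037408-67037657 (minus) for Gadd45a, chr10:80929841-80930090 (plus) for Gadd45b and chr11:40755287-40755536 (minus) for Ccng1.
Cdkn1a upstream start: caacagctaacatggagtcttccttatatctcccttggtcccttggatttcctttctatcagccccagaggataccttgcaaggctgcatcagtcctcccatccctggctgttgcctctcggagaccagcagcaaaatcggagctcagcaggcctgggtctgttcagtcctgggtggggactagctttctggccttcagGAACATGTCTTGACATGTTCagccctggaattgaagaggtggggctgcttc
Cdkn1a downstream start: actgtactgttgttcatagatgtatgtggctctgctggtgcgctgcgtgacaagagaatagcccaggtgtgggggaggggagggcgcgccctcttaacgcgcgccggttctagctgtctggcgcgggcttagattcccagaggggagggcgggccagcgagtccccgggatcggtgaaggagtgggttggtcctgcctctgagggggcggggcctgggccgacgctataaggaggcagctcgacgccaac
Mdm2: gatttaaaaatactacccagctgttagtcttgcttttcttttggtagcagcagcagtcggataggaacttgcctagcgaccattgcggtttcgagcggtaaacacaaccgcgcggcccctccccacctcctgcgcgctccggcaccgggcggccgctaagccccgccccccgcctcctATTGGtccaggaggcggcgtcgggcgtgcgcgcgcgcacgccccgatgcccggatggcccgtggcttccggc
Gadd45a: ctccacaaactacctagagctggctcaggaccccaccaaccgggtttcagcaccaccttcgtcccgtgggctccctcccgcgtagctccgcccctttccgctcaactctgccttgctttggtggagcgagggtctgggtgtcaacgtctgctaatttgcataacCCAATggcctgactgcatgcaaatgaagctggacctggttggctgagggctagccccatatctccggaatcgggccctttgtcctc
Gadd45b: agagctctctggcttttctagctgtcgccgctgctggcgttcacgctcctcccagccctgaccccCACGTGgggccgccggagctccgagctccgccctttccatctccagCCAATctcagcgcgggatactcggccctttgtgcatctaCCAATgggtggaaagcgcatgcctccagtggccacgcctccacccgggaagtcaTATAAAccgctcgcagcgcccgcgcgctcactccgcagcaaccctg
Ccng1: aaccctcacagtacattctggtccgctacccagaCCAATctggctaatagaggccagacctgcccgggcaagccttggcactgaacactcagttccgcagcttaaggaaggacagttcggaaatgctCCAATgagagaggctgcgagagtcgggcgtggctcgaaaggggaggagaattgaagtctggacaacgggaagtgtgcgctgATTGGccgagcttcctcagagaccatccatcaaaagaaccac
The Gadd45b window held 2 CCAAT boxes, a TATA box that began 46 bases before the start and 1 CACGTG element. Ccng1 held 3 CCAAT boxes, and Gadd45a and Mdm2 held 1 each. A match is a description of the letters and was not tested for binding.

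Of the 10 genes, 5 were higher in TAZG197V, 2 were lower and 3 were not called (edgeR quasi-likelihood test, Benjamini-Hochberg adjustment over all 15084 genes). Calls needed an adjusted p under 0.05, a mean scaled count of 50 or more and a fold change beyond the small limit set in the study's methods. By the same rule 33.5% of all tested genes were called, 18.5% higher and 15.1% lower. The values of the genotypes did not overlap for 5 of the 10 genes, against 33.2% of all tested genes. The median log2 fold change of the 10 genes was 0.24, and that of all tested genes was -0.01. Cdkn1a rose most, followed by Trp53inp1 and Gadd45a, whereas Ccng1 fell. Without both number 4 samples 7 of the 10 genes were again called, with Trp53 in place of Gadd45b, and 5193 of 15232 genes in all.

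**Figure D1:**
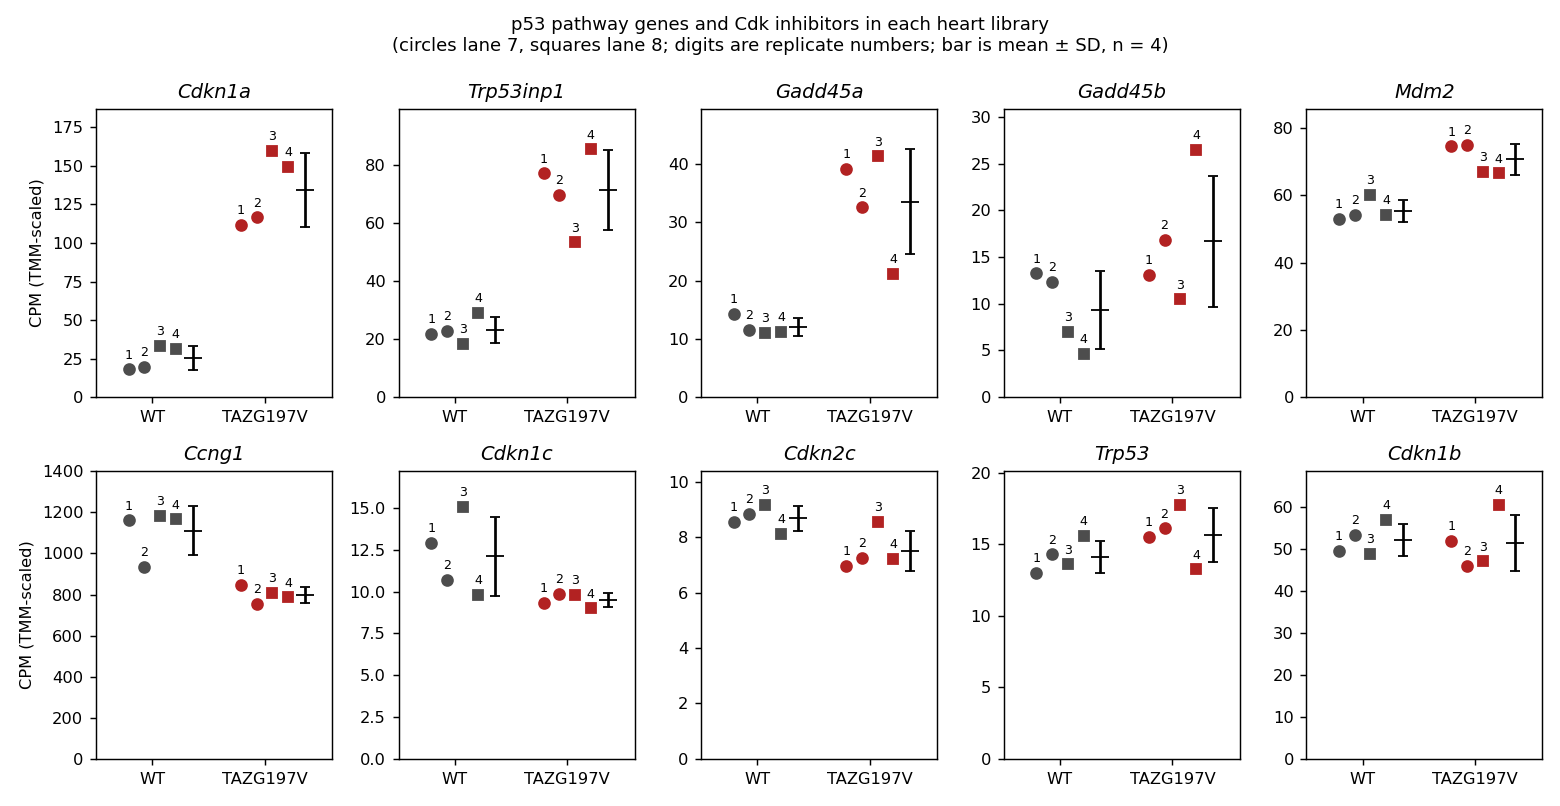
TMM-scaled CPM of each of the 10 genes in every sample (vertical axes, linear, from 0), with WT in grey and TAZG197V in red; circles are lane 7, squares lane 8, digits are replicate numbers, and the bar is the mean ± SD of 4 samples. All 4 TAZG197V points lie above all WT points for Cdkn1a, Trp53inp1, Gadd45a and Mdm2 and below them for Ccng1, and the genotypes overlap for the other 5 genes.

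Trp53 (ENSMUSG00000059552, chromosome 11, 69580359 to 69591873, plus strand, GRCm38) encodes p53 itself. Its level was 13.0, 14.3, 13.6 and 15.6 CPM in WT 1 to 4 and 15.5, 16.1, 17.8 and 13.2 CPM in TAZG197V 1 to 4. The genotypes overlapped, with TAZG197V 4 below 3 of the WT samples. The log2 fold change was 0.13 ± 0.102 (SE; adjusted p = 0.333), so Trp53 was not called. It was called without both number 4 samples (log2 fold change 0.27, adjusted p = 0.0397) and without TAZG197V 4 alone (0.27, adjusted p = 0.0337), and TAZG197V 4 was the sample with the highest brain marker sum.

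Mdm2 (ENSMUSG00000020184, chromosome 10, 117688875 to 117710758, minus strand) encodes the ligase that limits p53. It was read at 52.9, 54.2, 60.2 and 54.2 CPM in WT 1 to 4 and at 74.6, 75.0, 66.9 and 66.6 CPM in TAZG197V 1 to 4. Every TAZG197V value lay above every WT value, and the lane 7 samples were the higher pair in TAZG197V. The mean rose from 55.4 ± 3.29 to 70.8 ± 4.65 CPM (SD, n = 4 each), a log2 fold change of 0.35 ± 0.0656 (SE; adjusted p = 0.00417). This was a rise of 1.27-fold, and 81.4% of all tested genes had a lower log2 fold change. The difference in mean log2(CPM + 1) was 0.47 within lane 7 and 0.22 within lane 8, with no overlap in either lane. Mdm2 was not called in the fit of lane 8 alone (adjusted p = 0.34).

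Cdkn1a (ENSMUSG00000023067, chromosome 17, 29090976 to 29100727, plus strand), the gene for p21, showed the largest change of the 10. Its counts were 532, 716, 855 and 704 in WT 1 to 4 and 3070, 4322, 4956 and 4078 in TAZG197V 1 to 4. As CPM these were 18.0, 19.7, 33.2 and 31.4 in WT and 111.5, 116.6, 159.9 and 149.6 in TAZG197V. Even the lowest TAZG197V sample was far above the highest WT sample, and in both genotypes the lane 8 samples were the higher pair. The mean rose from 25.6 ± 7.85 to 134.4 ± 23.9 CPM (SD, n = 4 each). Its log2 fold change was 2.34 ± 0.187 (SE; adjusted p = 6.29e-05), or 5.07-fold, and it ranked 127 from the top among the 15084 tested genes. Within lanes the difference in mean log2(CPM + 1) was 2.54 in lane 7 and 2.22 in lane 8. In lane 8 alone, with 2 samples a genotype, Cdkn1a was the one gene of the 10 still called. An antisense gene, AC167363.2, covers 7.68% of the exon bases of Cdkn1a but had 3 to 17 counts per sample, and the strand setting of the counting was not given in the sources used here.

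The noncoding gene Trp53cor1, also known as lincRNA-p21, lies near Cdkn1a and is a p53 target of its own. It had 0, 6, 4 and 6 counts in WT and 19, 33, 27 and 12 counts in TAZG197V. Every TAZG197V count was above every WT count, but the mean count was below 50, so the gene could not be called (log2 fold change 2.21 ± 0.557 SE, adjusted p = 0.0149). It passed the filter for tested genes only through TAZG197V, so these values are a description only. Trp53cor1 was named after its values were seen.

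Trp53inp1 (ENSMUSG00000028211, chromosome 4, 11156431 to 11174379, plus strand) encodes a stress protein that promotes p53 phosphorylation and also takes part in autophagy. It was read at 21.7, 22.8, 18.5 and 29.1 CPM in WT 1 to 4 and at 77.1, 69.7, 53.3 and 85.3 CPM in TAZG197V 1 to 4. The groups were well separated, and WT 4 and TAZG197V 4 were the highest of their genotypes. The mean rose from 23 ± 4.47 to 71.3 ± 13.6 CPM (SD, n = 4 each), with a log2 fold change of 1.63 ± 0.124 (SE; adjusted p = 4.91e-05), or 3.11-fold. Leaving out any 1 sample gave 1.56 to 1.74. The difference in mean log2(CPM + 1) was 1.68 in lane 7 and 1.50 in lane 8, and the fit of lane 8 alone did not call it (adjusted p = 0.154).

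Ccng1 (ENSMUSG00000020326, chromosome 11, 40748552 to 40755311, minus strand) encodes cyclin G1, a p53 target that recruits a phosphatase to Mdm2. In contrast to the targets above it was lower in TAZG197V. It was read at 1161, 936, 1183 and 1166 CPM in WT 1 to 4 and at 848, 755, 809 and 786 CPM in TAZG197V 1 to 4. WT 2 was the lowest WT sample and still lay above all TAZG197V samples. Means were 1111 ± 117.6 and 799.6 ± 39.3 CPM (SD, n = 4 each), a log2 fold change of -0.51 ± 0.0714 (SE; adjusted p = 0.001), so WT was 1.42-fold higher. The mean log2(CPM + 1) differed by -0.38 in lane 7 and -0.56 in lane 8, with no overlap in either. Ccng1 was not called in the fit of lane 7 alone (adjusted p = 0.0595) or of lane 8 alone (adjusted p = 0.141). Ccng1 was by far the most abundant of the 10 transcripts in both genotypes. The summed cardiomyocyte markers were lower in TAZG197V as well, with no overlap, and their part in this difference was not tested.

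Gadd45a (ENSMUSG00000036390, chromosome 6, 67035096 to 67037457, minus strand) and Gadd45b (ENSMUSG00000015312, chromosome 10, 80930073 to 80932204, plus strand) encode small stress proteins that bind MAP kinase kinase kinases, Pcna and p21. Gadd45a was read at 14.3, 11.5, 11.0 and 11.2 CPM in WT 1 to 4 and at 39.1, 32.6, 41.3 and 21.2 CPM in TAZG197V 1 to 4. All TAZG197V samples were above all WT samples, with TAZG197V 4 the lowest of them. The mean rose from 12.0 ± 1.57 to 33.6 ± 9.03 CPM (SD, n = 4 each), a log2 fold change of 1.43 ± 0.139 (SE; adjusted p = 0.000163), or 2.7-fold. The differences in mean log2(CPM + 1) within lanes 7 and 8 were 1.41 and 1.34, and Gadd45a was not called in the fit of lane 8 alone (adjusted p = 0.178). The antisense gene E230016M11Rik shares 19.1% of the exon bases of Gadd45a and had 17 to 43 counts per sample, against 250 to 1281 for Gadd45a.

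Gadd45b was called higher, but the call was lost without most single samples. Its counts were 392, 449, 181 and 103 in WT 1 to 4 and 361, 623, 324 and 722 in TAZG197V 1 to 4, which gave 13.3, 12.3, 7.03 and 4.60 CPM in WT and 13.1, 16.8, 10.5 and 26.5 CPM in TAZG197V. The genotypes overlapped, since WT 1 and WT 2 were above TAZG197V 3. The log2 fold change was 0.97 ± 0.296 (SE; adjusted p = 0.0324). Without TAZG197V 4 it was 0.35 (adjusted p = 0.249), without WT 4 it was 0.48 (adjusted p = 0.117), and without both number 4 samples it was 0.32 (adjusted p = 0.242). The call was also lost without WT 2, WT 3, TAZG197V 1 or TAZG197V 2, where the adjusted p was 0.0627 to 0.122 but the log2 fold change stayed at 0.90 to 1.10. With no surrogate variables in the model the adjusted p was 0.126 (log2 fold change 0.84), and with lane in their place 0.105 (0.92). The difference in mean log2(CPM + 1) was 0.20 in lane 7, where the genotypes overlapped, and 1.40 in lane 8, where they did not, and neither the fit of lane 7 alone (adjusted p = 0.233) nor that of lane 8 alone (adjusted p = 0.232) called it.

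Clock transcripts separated the WT samples in the same pairs as Gadd45b and Cdkn1a did, and these were also the lane 7 and lane 8 pairs, so clock and lane cannot be told apart within WT. The 9 clock genes summed to 627.7 and 615.9 CPM in WT 1 and 2 and to 330 and 378.3 CPM in WT 3 and 4. Arntl, a core clock activator, was read at 9.17, 8.16, 31.7 and 22.4 CPM in WT 1 to 4 and at 7.19, 5.80, 14.5 and 6.97 CPM in TAZG197V 1 to 4. Per1, a clock repressor, was read at 55.2, 44.3, 9.79 and 26.3 CPM in WT and at 29.2, 42.8, 39.7 and 55.3 CPM in TAZG197V. Thus the 2 WT samples with the higher Arntl values had the lower Gadd45b and the higher Cdkn1a values. In TAZG197V, Cdkn1a was again higher in the lane 8 pair, but the clock sums were not split by lane, at 446 and 480.8 CPM in TAZG197V 1 and 2 and 362.8 and 493.9 CPM in TAZG197V 3 and 4. Of the clock genes 1 of 9 was called (11.1%, against 33.5% of all tested genes), Arntl, which was lower (adjusted p = 0.0372), and the part of the clock in the Gadd45b and Cdkn1a values was not tested. The 7 immediate early genes summed to 267.2 and 387.3 CPM in TAZG197V 1 and 2 and to 46.4 to 96.0 CPM in the other samples. The order of these sums was not that of Gadd45b, and their part in the Gadd45b values was not tested.

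Cdkn1b (ENSMUSG00000003031, chromosome 6, 134920401 to 134925513, plus strand), the gene for p27, was read at 49.5, 53.3, 48.8 and 56.9 CPM in WT 1 to 4. In TAZG197V 1 to 4 it was read at 52.0, 46.0, 47.0 and 60.5 CPM. The genotypes overlapped fully, and the log2 fold change was -0.02 ± 0.0553 (SE; adjusted p = 0.797). The 95% interval of this value, from the same fit, was -0.15 to 0.11.

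Cdkn1c (ENSMUSG00000037664, chromosome 7, 143458339 to 143461050, minus strand) encodes p57 and is an imprinted gene. It was read at 12.9, 10.7, 15.1 and 9.78 CPM in WT 1 to 4 and at 9.34, 9.88, 9.81 and 8.99 CPM in TAZG197V 1 to 4. The TAZG197V samples lay close together, and WT 4 fell among them. The log2 fold change was -0.36 ± 0.118 (SE; adjusted p = 0.0438), so the gene was called lower. The adjusted p was 0.135 without WT 3, the highest sample (log2 fold change -0.24), 0.0802 with no surrogate variables (-0.35) and 0.0979 with lane in their place (-0.35), so none of these fits called it. The mean log2(CPM + 1) differed by -0.27 in lane 7 and -0.34 in lane 8, and the gene was not called in either lane alone (adjusted p = 0.13 and 0.484). It was likewise not called without WT 1, TAZG197V 1, TAZG197V 2 or TAZG197V 3, where the log2 fold change stayed at -0.37 to -0.35. The antisense gene Gm44732 covers 30.7% of the exon bases of Cdkn1c and had 0 counts in every sample.

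Cdkn2c (ENSMUSG00000028551, chromosome 4, 109660876 to 109667189, minus strand), the gene for p18, was read at 8.56, 8.85, 9.17 and 8.13 CPM in WT 1 to 4. In TAZG197V 1 to 4 it was read at 6.98, 7.26, 8.55 and 7.23 CPM. TAZG197V 3 lay within the WT values and the other 3 TAZG197V samples lay below them. The log2 fold change of -0.21 ± 0.100 (SE; adjusted p = 0.139) was not called.

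**Figure D2:**
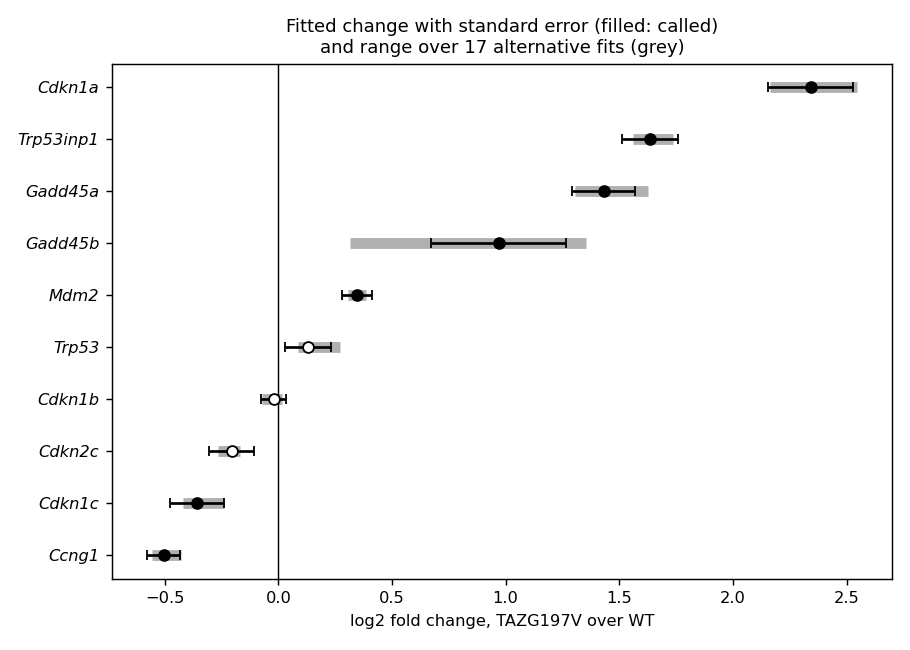
Log2 fold change of TAZG197V over WT for each of the 10 genes (horizontal axis), with points for the fitted value, black bars for its standard error and grey bands for the range over 17 alternative fits. Filled points were called; the band of Gadd45b, from 0.32 to 1.35, is the widest, and the band of Cdkn1b is the one that crosses 0.

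The order of the transcripts by level was compared per kb of exon, since longer transcripts give more reads. In WT, Ccng1 was highest (316.5 CPM per kb), followed by Cdkn1b (11.5), Mdm2 (10.9), Cdkn1a (7.20), Gadd45a (6.81), Cdkn1c (5.94), Gadd45b (5.86), Trp53inp1 (3.55), Trp53 (3.49) and Cdkn2c (3.23). Of the neighbours in this order, Ccng1 and Cdkn1b, and Mdm2 and Cdkn1a, did not overlap between samples, and the other neighbours did. In TAZG197V, Cdkn1a was second at 37.8 CPM per kb, between Ccng1 (227.7) and Gadd45a (19.0), and overlapped with neither. Mdm2 (13.9), Cdkn1b (11.3), Trp53inp1 (11.0) and Gadd45b (10.5) followed, and from Gadd45a to Gadd45b each gene overlapped with its neighbour, whereas Gadd45b did not overlap with Cdkn1c. Cdkn1c (4.66), Trp53 (3.87) and Cdkn2c (2.79) came last, with no overlap between neighbours.

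These levels changed the composition of the Cip/Kip family. Cdkn1a made up 22.8, 24.6, 34.0 and 33.8% of the summed CPM per kb of Cdkn1a, Cdkn1b and Cdkn1c in WT 1 to 4, and 66.3, 68.7, 74.8 and 70.4% in TAZG197V 1 to 4. In WT, Cdkn1b held the largest share, 47.0% ± 5.57, and in TAZG197V Cdkn1a did, 70.1% ± 3.62 (SD, n = 4 each). The share of Cdkn1c was 24.2% ± 4.48 in WT and 8.79% ± 1.32 in TAZG197V. The family sum was 24.6 ± 2.61 CPM per kb in WT and 53.8 ± 7.16 in TAZG197V, with no overlap and a ratio of means of 2.19. The INK4 sum of Cdkn2a, Cdkn2b, Cdkn2c and Cdkn2d was 11.5 ± 0.456 and 11.4 ± 0.653 CPM per kb, with overlap. Cdkn2d, which encodes p19, held 68.7% of the INK4 sum in WT and 72.0% in TAZG197V. In the Gadd45 family the sum of the 3 genes was 19.2 ± 5.49 CPM per kb in WT and 35.4 ± 1.49 in TAZG197V, with no overlap. The share of Gadd45g, the remaining family gene, was 33.2% in WT and 16.4% in TAZG197V, while its own log2 fold change of 0.05 (adjusted p = 0.889) was not called. No test was run on these sums and shares, which hold genes already described above.

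**Figure D3:**
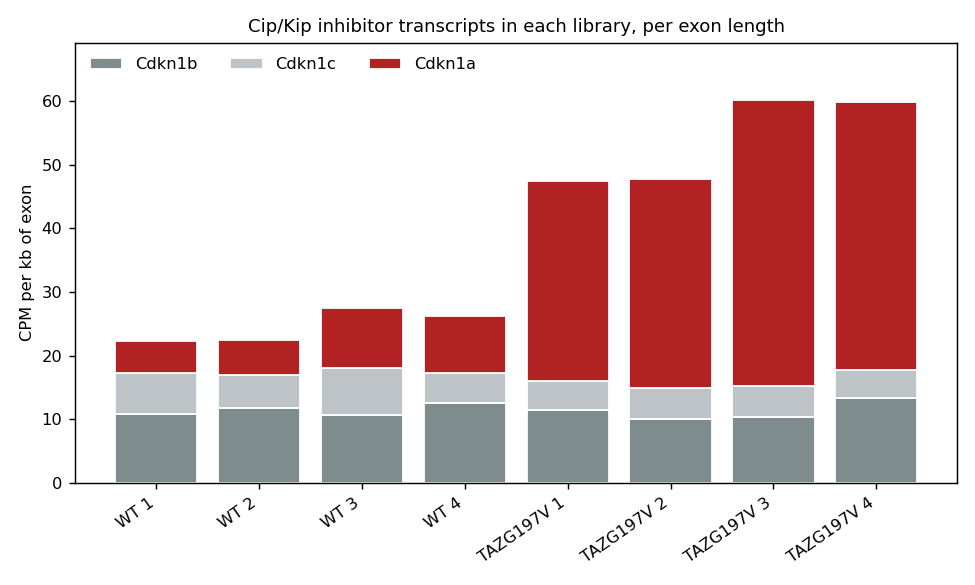
Stacked CPM per kb of exon of Cdkn1b, Cdkn1c and Cdkn1a in each of the 8 samples (vertical axis from 0; one bar per sample). The bars of TAZG197V reach 47.4 to 60.2 and those of WT 22.3 to 27.5, and the red Cdkn1a part is the larger in every TAZG197V bar.

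Among the other p53 targets that were called, Sesn2, Eda2r and Phlda3 showed the largest rises. Of 34 listed genes 33 were tested, with Spata18 too low, and 11 were called higher, 2 lower and 20 not called (39.4% called, against 33.5% of all tested genes), with a median log2 fold change of 0.20. When both number 4 samples were left out, 15 of them were called, and 28 genes over all 5 lists of related genes in place of 24. That fit called 5193 of 15232 genes in all, against 5060 of 15084 in the main fit. Lane 8 alone gave 0 calls in these lists by edgeR (17 genes at an unadjusted p under 0.05) and 45 calls in all. Sesn2, a sestrin that restrains mTORC1 and is also a target of ATF4, was read at 3.86, 3.60, 4.54 and 5.45 CPM in WT and at 31.4, 35.2, 37.2 and 24.1 CPM in TAZG197V, a log2 fold change of 2.80 ± 0.117 (SE). Eda2r, the ectodysplasin A2 receptor, rose by a log2 fold change of 1.42 ± 0.130 (SE), from 5.01 ± 0.499 to 13.6 ± 3.04 CPM. Phlda3, an inhibitor of Akt, rose by 1.35 ± 0.142 (SE), from 9.67 ± 3.32 to 22.2 ± 4.35 CPM (SD, n = 4 each). The 2 genes that fell were Ak1, an adenylate kinase of muscle (log2 fold change -0.40, adjusted p = 0.00459), and Susd6 (-0.26, adjusted p = 0.00388), both without overlap.

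Further p53 targets were named after their values were seen. Bax, a pore-forming protein of mitochondria, rose from 10.3 ± 1.51 to 18.5 ± 3.33 CPM (log2 fold change 0.86 ± 0.111 SE) and Bbc3, which encodes Puma, from 2.98 ± 0.568 to 6.52 ± 1.39 CPM (2.22-fold; SD over n = 4). Perp rose by 0.63 and the nuclease gene Aen by 0.85 on the log2 scale. The other called rises were Abhd4 (0.82), Fdxr (0.64), Plk2 (0.53) and Tigar (0.45). Other well known targets were not called, among them Zmat3 (log2 fold change 0.14, adjusted p = 0.26), Sesn1 (0.13, adjusted p = 0.341) and Fas (0.07, adjusted p = 0.615). Apaf1 (0.01, adjusted p = 0.966) and Tnfrsf10b (0.38, adjusted p = 0.119) were not called either. Pmaip1 (0.10, adjusted p = 0.889) and Pidd1 (0.02, adjusted p = 0.946) had mean counts of 14.5 and 38.8, below 50, and could not be called. Btg2 was high in TAZG197V 1 and 2 alone, at 123.8 and 148.3 CPM against 25.9 to 46.4 CPM in the other samples, and was not called (adjusted p = 0.115). The sums of the immediate early genes were high in the same pair of samples.

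Regulators and relatives of p53 gave 2 genes higher and 2 lower of 19 tested (21.1% called, against 33.5% of all tested genes). The 4 calls became 2 without TAZG197V 2, and 6 without WT 3 or without both number 4 samples. Trp63, which encodes the p53 relative p63, was read at 0.643, 0.934, 0.544 and 0.804 CPM in WT and at 5.05, 5.94, 8.26 and 1.98 CPM in TAZG197V, with a log2 fold change of 2.74 ± 0.334 (SE; adjusted p = 0.000496). TAZG197V 4 was the lowest of its genotype and still above all WT samples. Trp63 had 14 to 34 counts per WT sample and 54 to 256 per TAZG197V sample, so it reached the mean count of 50 only through TAZG197V. Rchy1, an E3 ligase for p53, rose by 0.26 on the log2 scale, and the coactivator gene Ep300 and the p53-binding gene Ppp1r13b each fell by 0.29. Mdm4, the partner of Mdm2, was not called (log2 fold change -0.14, adjusted p = 0.233), nor was the phosphatase gene Ppm1d (0.24, adjusted p = 0.0659), both named after their values were seen.

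Among the cyclins, Cdks and pocket proteins, 2 were higher and 2 lower of 20 tested (20% called, against 33.5% of all tested genes). Ccnd2, which encodes cyclin D2, was read at 139.9, 146.1, 145.8 and 94.7 CPM in WT and at 614.9, 579.1, 517.9 and 420.8 CPM in TAZG197V, a log2 fold change of 2.06 ± 0.0868 (SE; adjusted p = 2.39e-06). Ccnd1, for cyclin D1, fell from 49.1 ± 6.03 to 32.3 ± 7.13 CPM (SD, n = 4 each; log2 fold change -0.62, adjusted p = 0.000208), so Ccnd2 and Ccnd1 moved in opposite directions. Ccnd3, for cyclin D3, was not called (-0.06, adjusted p = 0.529) and was named after its value was seen. Cdk4 rose by 0.24 and Cdk2 fell by 0.43 on the log2 scale. Of 6 markers of dividing cells, 0 were called by edgeR (1 at an unadjusted p under 0.05), against 33.5% of all tested genes, and 0 by DESeq2. Ccnb2, Cdc20, Aurkb and Birc5 had mean counts below 50, so only Mki67 and Top2a could be called. The sum of the 6 markers was 12.1 to 17.1 CPM in WT and 12.4 to 15.5 CPM in TAZG197V. The other Cdk inhibitors gave 0 calls of 3 tested by edgeR (0 at an unadjusted p under 0.05), against 33.5% of all tested genes, and 0 by DESeq2. Cdkn2b and Cdkn3 had mean counts of 12.3 and 11.3, below 50, so only Cdkn2d could be called. Cdkn2a, the senescence-associated gene for p16 and p19Arf, was too low to be tested, with a mean of 0.0734 ± 0.0466 CPM in WT and of 0.113 ± 0.016 CPM in TAZG197V (SD, 4 samples each).

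Of 8 tested partners of the Gadd45 proteins, 0 were called higher and 3 lower by edgeR (37.5% called, against 33.5% of all tested genes). At an unadjusted p under 0.05 there were 5, of which Pcna, named after its value was seen, was higher (log2 fold change 0.17, adjusted p = 0.0749), and DESeq2 called 0 higher and 3 lower. Mapk14, which encodes the kinase p38 alpha, fell from 94.9 ± 14.6 to 56.9 ± 1.98 CPM (log2 fold change -0.77 ± 0.068 SE). Map3k4, the kinase that Gadd45 proteins bind and activate, fell from 54.8 ± 2.97 to 39.8 ± 1.77 CPM (-0.47 ± 0.0644 SE). Map2k6, the kinase between them, fell from 4.40 ± 0.979 to 1.96 ± 0.70 CPM (SD, n = 4 each; -1.10 ± 0.282 SE). Their adjusted p-values in edgeR were 0.000104 for Mapk14, 0.000862 for Map3k4 and 0.0159 for Map2k6, and none of the 3 overlapped between genotypes.

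**Figure D4:**
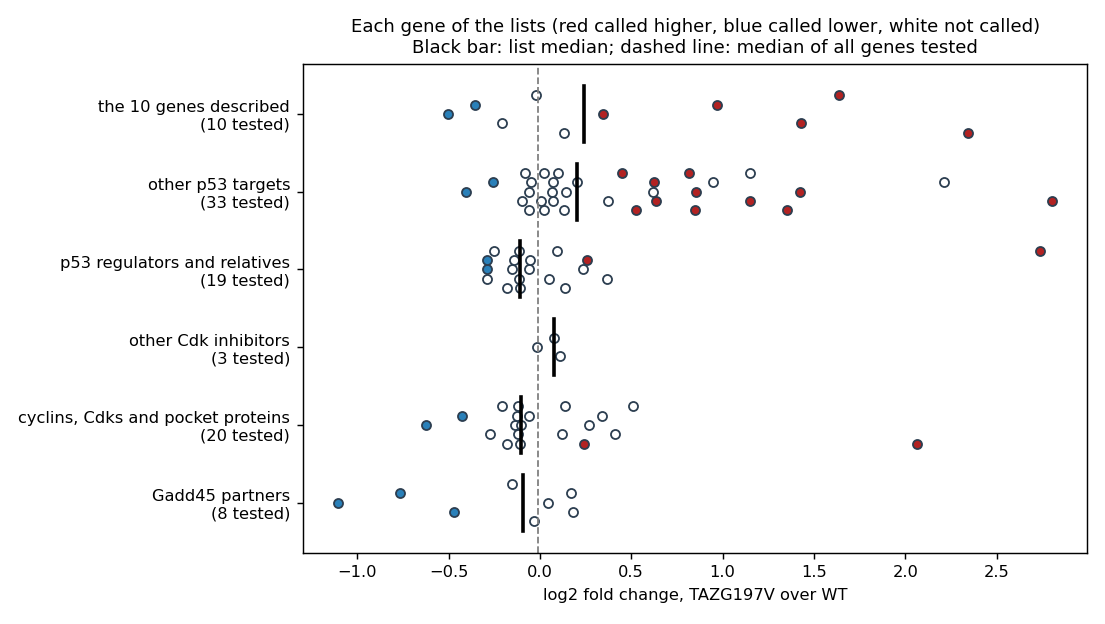
Log2 fold change of TAZG197V over WT (horizontal axis) for every tested gene of the 10 genes described and of 5 lists of related genes (rows); red points were called higher, blue lower and white not called, the black bar is the median of the list and the dashed line the median of all tested genes, -0.01. The rightmost points of their rows are Cdkn1a, Sesn2, Trp63 and Ccnd2, and the called Gadd45 partners all lie left of 0.

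Genes whose promoter window held the p53 element were described last, as a list made after values were seen. Of 44 such genes 19 were tested, and 4 were called higher and 3 lower, which is 36.8% against 33.5% of all tested genes. The median log2 fold change was 0.04. The 4 that rose were Cdkn1a, already described above, Sptbn4 (1.79 ± 0.321 SE), Rps27l (1.01 ± 0.0706 SE) and Ss18l2 (0.44 ± 0.0644 SE). Of these Rps27l is also a known p53 target. The 3 that fell were Calhm2 (-0.62 ± 0.121 SE), Rp2 (-0.38 ± 0.122 SE) and Stox2 (-0.35 ± 0.0962 SE).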

How the data were processed

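Gene expression was measured by single-end RNA sequencing of 50 bases in hearts of 4 WT and 4 TAZG197V samples, grouped by genotype label. Per the submitters' processing notes, the authors used bcl2fastq 2.20.0, FastQC 0.11.9, STAR 2.7.3a on mm10, and featureCounts of Subread 2.0.0. The deposited values are raw counts of reads overlapping exons per Ensembl gene. The annotation release and strand setting were not given in the sources used here, so antisense overlaps are stated beside the genes concerned. Rows of 92 spike-ins had 0 counts and were left out. Symbols and positions came from GENCODE M21.

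Genes were filtered with filterByExpr, scaled by TMM and tested in edgeR 4.0.16 (R 4.3.3; quasi-likelihood, two-sided) with 2 surrogate variables from svaseq (sva 3.50.0, seed 1). Adjustment was by Benjamini-Hochberg over 15084 genes, and 5060 were called. The standard error is the log2 fold change divided by the square root of F, and intervals use the degrees of freedom of that test. Alternatives were DESeq2 1.42.0, other covariates, scalings, filters, thresholds, single lanes and omitted samples. The procedure was also run on simulated data, and the outcome is not given here. Within a genotype, samples differed by a chi-square of at least 10.2 per gene, so none was the same library deposited again. Depth was 23055689 to 36301031 counts, and counting error was not compared with the spread between samples. The 10 genes and all lists were chosen with earlier results of these data known. Text names the 10 genes and, per list of related genes, up to 3 called genes with the largest rise and fall. For genes with the p53 element in a window, all called genes are named. Any other gene is to be read as chosen after seeing values, also where this is not said beside it.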

Additional observations from a re-analysis of the deposited data

Results flagged for a closer look

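For each of the 10 genes and each marker list, the highest or lowest of 4 samples of a genotype was compared with the others by its gap to the nearest sample as a share of the group's range (Dixon's test). Of 46 sets 11 passed its critical value, and chance gives about 2.3. Among the 10 genes, Ccng1 was low in WT 2 (gap share 0.909; 936 CPM against 1160 to 1180 CPM), and Gadd45a was high in WT 1 (0.854; 14.3 CPM against 11.0 to 11.5 CPM). Both values lay on the WT side of every TAZG197V sample. Among the marker sums, WT 4 was high for red cell (0.987), brain (0.931) and neutrophil (0.945) genes, with 58.6 CPM of neutrophil genes against 0.357 to 3.57 CPM. TAZG197V 4 was high for brain genes (0.976). WT 2 was high for fibroblast (0.892) and atrial (0.892) genes, with 1060 CPM of atrial genes against 3.79 to 118 CPM, and TAZG197V 2 was high for atrial genes (0.87). WT 3 was high for endothelial genes (0.943), and WT 1 was low for dividing cell genes (0.849). The part of these marker levels in the differences of the 10 genes was not tested.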

How the results depend on the processing

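Cdkn1a, Trp53inp1, Gadd45a, Mdm2 and Ccng1 were called in all 17 alternative fits over both lanes at the main fold limit, Cdkn1c in 8, Gadd45b in 6, Trp53 in 2, and Cdkn1b and Cdkn2c in 0 (edgeR or DESeq2). At a fold of at least 1.5, 4 of the 10 genes, 14 pathway genes and 1843 genes in all were called. In lane 7 alone 4 of the 10 were called, without Ccng1 (adjusted p = 0.0595), Cdkn1c or Gadd45b. That fit called 25 pathway genes and 4455 of 15510 genes in all. In lane 8 alone edgeR called 1 of the 10 (5 at an unadjusted p under 0.05), 0 pathway genes (17 at an unadjusted p under 0.05) and 45 genes in all, with 2 samples a genotype. Leaving out single samples gave 5 to 7 of the 10 genes, 20 to 26 pathway genes and 3675 to 4816 genes in all. The log2 fold change of Cdkn1b turned positive in lane 8 alone (0.0181), and without single samples it was -0.0731 to 0.0171, positive without TAZG197V 2 or TAZG197V 3. With no surrogate variables 4192 genes were called, and the causes of these shifts were not tested.

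Deviations of same-numbered samples correlated at 0.323, 0.0666, 0.28 and 0.418 for numbers 1 to 4, and those of different numbers at -0.46 to 0.336. Since number 2 was near 0 and inside that range, and no label says that a number marks a shared animal or litter, the numbers were not taken as pairs. With the replicate block 5 of the 10 genes were called, without Cdkn1c (log2 fold change -0.33, adjusted p = 0.0742) and Gadd45b (0.83, adjusted p = 0.158), and 23 pathway genes and 4272 genes in all.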
